A study of Mus musculus with 46 samples.

Results

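The genes followed here are Ins1, Ins2, Iapp and Ucn3, which encode 4 peptide hormones stored in the secretory granules of pancreatic beta cells. They were taken by gene symbol from the deposited count tables, are 4 of 55487 genes listed, and were read in the 33 islet libraries among the 46 libraries of the series. Of these, 14 were mouse islets labelled Tfam control (5 female, 3 male) or Tfam KO (4 female, 2 male), and 19 were mouse islets labelled Clec16a control (4 on RFD, 6 on HFD) or Clec16a KO (4 on RFD, 5 on HFD). RFD and HFD are the 2 diets of the second experiment, and the labels do not write them out. Tfam encodes a protein that packages mitochondrial DNA and activates its transcription, and Clec16a encodes a regulator of mitophagy, the removal of damaged mitochondria. The labels name no Cre driver, strain or age in any islet group, and give sex for the Tfam islets only. All islets were kept overnight in culture before total RNA was taken. The title of the series concerns mitochondrial control of cell identity and maturity, and these genes are usual readouts of both in beta cells.

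Rodents carry a pair of insulin genes: Ins2 has the ancestral exon structure, and Ins1 is a copy that arose by retroposition and lacks an intron of the coding region. Both encode preproinsulin, the precursor of proinsulin, which is cut in the granule to insulin and C-peptide. Iapp encodes islet amyloid polypeptide (amylin), which is released together with insulin and acts on calcitonin receptors joined to RAMP proteins. Ucn3 encodes urocortin 3, a ligand of the type 2 corticotropin-releasing factor receptor. Mature mouse beta cells release urocortin 3, which acts on delta cells and through their somatostatin restrains insulin release, and Ucn3 is widely used as a marker of beta cell maturity. All of these genes are strong in beta cells, and in a bulk library fewer beta cells and less RNA of a gene in each beta cell cannot be told apart.

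The files' gene identifiers place Ins1 at chr19:52264297-52265476 on the plus strand of GRCm38 and Ins2 at chr7:142678656-142743381 on the minus strand. The coding sequences of the insulin genes are shown because counts of the pair are compared below and because a read that fits both genes could be given to either. Each is printed in its own 5′ to 3′ direction, spliced where there is an intron, from the first base of the start codon to the last base at which the genes differ (base 270 in Ins1 and 276 in Ins2), with capitals at the bases that differ between the genes or have no partner in the other. The coding region of Ins1 (transcript Ins1-201) lies in 1 exon at chr19:52264624-52264947, and that of Ins2 (transcript Ins2-201) lies in 2 exons within chr7:142678716-142679533.
Ins1: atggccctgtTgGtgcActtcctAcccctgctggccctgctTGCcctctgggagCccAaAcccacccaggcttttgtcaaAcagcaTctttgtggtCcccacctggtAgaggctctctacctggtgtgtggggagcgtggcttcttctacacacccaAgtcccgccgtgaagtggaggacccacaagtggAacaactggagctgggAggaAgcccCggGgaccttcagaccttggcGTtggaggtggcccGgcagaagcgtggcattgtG
Ins2: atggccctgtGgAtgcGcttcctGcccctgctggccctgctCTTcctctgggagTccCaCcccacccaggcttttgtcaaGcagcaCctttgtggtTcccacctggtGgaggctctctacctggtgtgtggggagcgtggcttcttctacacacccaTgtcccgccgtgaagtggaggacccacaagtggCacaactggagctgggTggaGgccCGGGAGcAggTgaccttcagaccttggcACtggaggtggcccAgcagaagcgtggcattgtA
The last 54 bases of both coding sequences, which are identical and form the longest identical run, are left out. Of 324 aligned bases, 300 (92.6%) were identical, 24 differed, and 6 bases of Ins2 had no partner in Ins1. Reads were 151 bases long from each end. No window of 151 bases was shared by the gene models used (0 of 912 windows in Ins1 and 0 of 328 in Ins2), but 65 windows of 25 bases were, 6.26% of those in Ins1 and 14.3% of those in Ins2. How the authors' counting treated reads that fit both genes is not given in the sources used here, so counts of the pair are uncertain to that extent.

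Iapp lies at chr6:142298423-142303961 on the plus strand, inside Slco1a5, an organic anion transporter gene on the minus strand. Slco1a5 was counted at 0.565 to 4.58 CPM (counts scaled to the size of the library) over the 33 islet libraries, and whether the counting used strand is not given in the sources used here. Ucn3 lies at chr13:3940688-3945349 on the minus strand. Promoters are shown for 3 of these genes because their levels are compared across genotypes below. They are the 250 bases before the RefSeq start of each gene (GRCm38.p6), printed in the direction of the gene. Capitals mark CATCTG, an E-box form, and TAAT, the core of many homeodomain sites, on either strand. The windows are chr6:142298175-142298424 (plus strand) for Iapp, chr13:3945350-3945599 (minus strand) for Ucn3 and chr19:52264047-52264296 (plus strand) for Ins1.
Iapp: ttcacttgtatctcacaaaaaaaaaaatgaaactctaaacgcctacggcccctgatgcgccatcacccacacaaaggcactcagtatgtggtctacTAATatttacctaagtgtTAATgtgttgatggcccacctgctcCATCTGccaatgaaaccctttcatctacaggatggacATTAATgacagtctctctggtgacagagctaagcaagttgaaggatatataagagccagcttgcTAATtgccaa
Ucn3: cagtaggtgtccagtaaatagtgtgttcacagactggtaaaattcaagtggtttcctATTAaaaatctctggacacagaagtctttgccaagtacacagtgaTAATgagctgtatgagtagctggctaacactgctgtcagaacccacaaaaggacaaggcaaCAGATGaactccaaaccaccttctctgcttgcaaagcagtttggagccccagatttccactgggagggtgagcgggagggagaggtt
Ins1: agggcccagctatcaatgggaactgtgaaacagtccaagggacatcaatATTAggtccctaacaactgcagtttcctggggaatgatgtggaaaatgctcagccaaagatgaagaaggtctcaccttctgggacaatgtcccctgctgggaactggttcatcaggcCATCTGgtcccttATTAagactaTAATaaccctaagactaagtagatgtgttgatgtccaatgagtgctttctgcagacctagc
Each of the 3 windows held 1 match to CATCTG, at position -111 in Iapp, -87 in Ucn3 and -84 in Ins1 counted from the start. Of 32851 RefSeq promoters of the same length, 14.4% held at least 1 such match. TAAT matched 5 times in Iapp, 3 times in Ins1 and 2 times in Ucn3, and 54.9% of all promoters held at least 1 match and 17.3% at least 3. One of the TAAT matches in Iapp overlaps another on the opposite strand. CCAAT and TATAA each matched 1 time in Iapp and 1 time in Ins1 and had no match in the Ucn3 window, against 33.8% and 22.8% of all promoters with at least 1 match.

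Libraries of the Tfam experiment held 55223041 to 83342809 counts and those of the Clec16a experiment 16235173 to 55810879. Even the lowest count of Ucn3 in a library, 6736, was far above the counting floor, so counting error is small beside the spread between libraries. Tfam itself was counted at 37.8 to 44.7 CPM in the 8 control libraries and at 16.02 to 18.9 CPM in the 6 KO libraries, a log2 fold change of -1.21 (SE 0.06, adjusted p = 3.76e-10, edgeR quasi-likelihood test). Counts over the whole Clec16a gene did not separate its genotypes, with 20.9 to 31.8 CPM in 10 control libraries and 23.4 to 32.9 CPM in 9 libraries labelled KO. The deleted part of Clec16a is not given, so these counts check no label. One library stood apart, that labelled Clec16a KO HFD replicate 4. Over the 688 genes called higher in the KO islets on RFD its mean log2 CPM was 3.16, against 2.995 to 3.28 in the 6 HFD controls and 4.15 to 4.32 in the other 4 KO libraries on HFD. Over the 610 genes called lower on RFD it lay at 4.43, against 4.42 to 4.65 and 3.62 to 3.70. In addition, 5 of the 19 Clec16a libraries (control HFD replicates 1, 3 and 4, control RFD replicate 2 and KO HFD replicate 4) had 39.8 to 46.6 Ins1 counts per 100 Ins2 counts, while the other 14 had 16.8 to 24.6. Values without KO HFD replicate 4 are given beside those with it for Ucn3, Ins1 and Ins2 compared between genotypes on HFD. They are also given for list counts on HFD that differ without it, and for HFD changes of the named genes of related lists that were called. Other results hold all libraries unless said. The titles call the libraries biological replicates without saying that each came from its own mouse, so p-values measure only the spread between these samples.

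In the 33 islet libraries Ins2 was the first gene of all by TPM (a level that corrects for transcript length), at 172598 to 331095 TPM. Ins1 ranked between 2 and 5 at 32961 to 158379 TPM, Iapp between 3 and 5 at 30141 to 54355 TPM, and Ucn3 between 28 and 133 at 472 to 1458 TPM. In the 13 livers of the series Ins1 and Iapp had 0 counts, and Ins2 and Ucn3 had at most 2 in a library. Per length, the order of the levels was therefore Ins2, then Ins1, then Iapp, then Ucn3 in the control and Clec16a KO groups. In both Tfam KO groups the mean of Iapp lay above that of Ins1, at 39384 ± 668 against 37259 ± 3896 TPM in females (n = 4) and 45061 ± 3114 against 38467 ± 155 TPM in males (n = 2).

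The insulin genes together took 19.2 ± 2.30% (SD, n = 5) of all counts in Tfam control females and 22.3 ± 0.564% (n = 3) in control males. In Tfam KO islets the share was 11.8 ± 1.33% (n = 4) in females and 11.96 ± 0.379% (n = 2) in males. In the Clec16a islets it was 23.2 ± 4.56% in RFD controls (n = 4), 19.7 ± 1.75% in KO on RFD (n = 4), 24.01 ± 2.35% in HFD controls (n = 6) and 18.4 ± 3.62% in KO on HFD (n = 5). Since insulin takes so many counts, a large fall of insulin raises the TPM of every other gene, and the comparisons below therefore use CPM on library sizes scaled by TMM, a method that sets most genes to equal levels. With library sizes taken without these 4 genes, all 4 log2 fold changes in the Tfam islets were the same to 2 decimals.

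**Figure D1:**
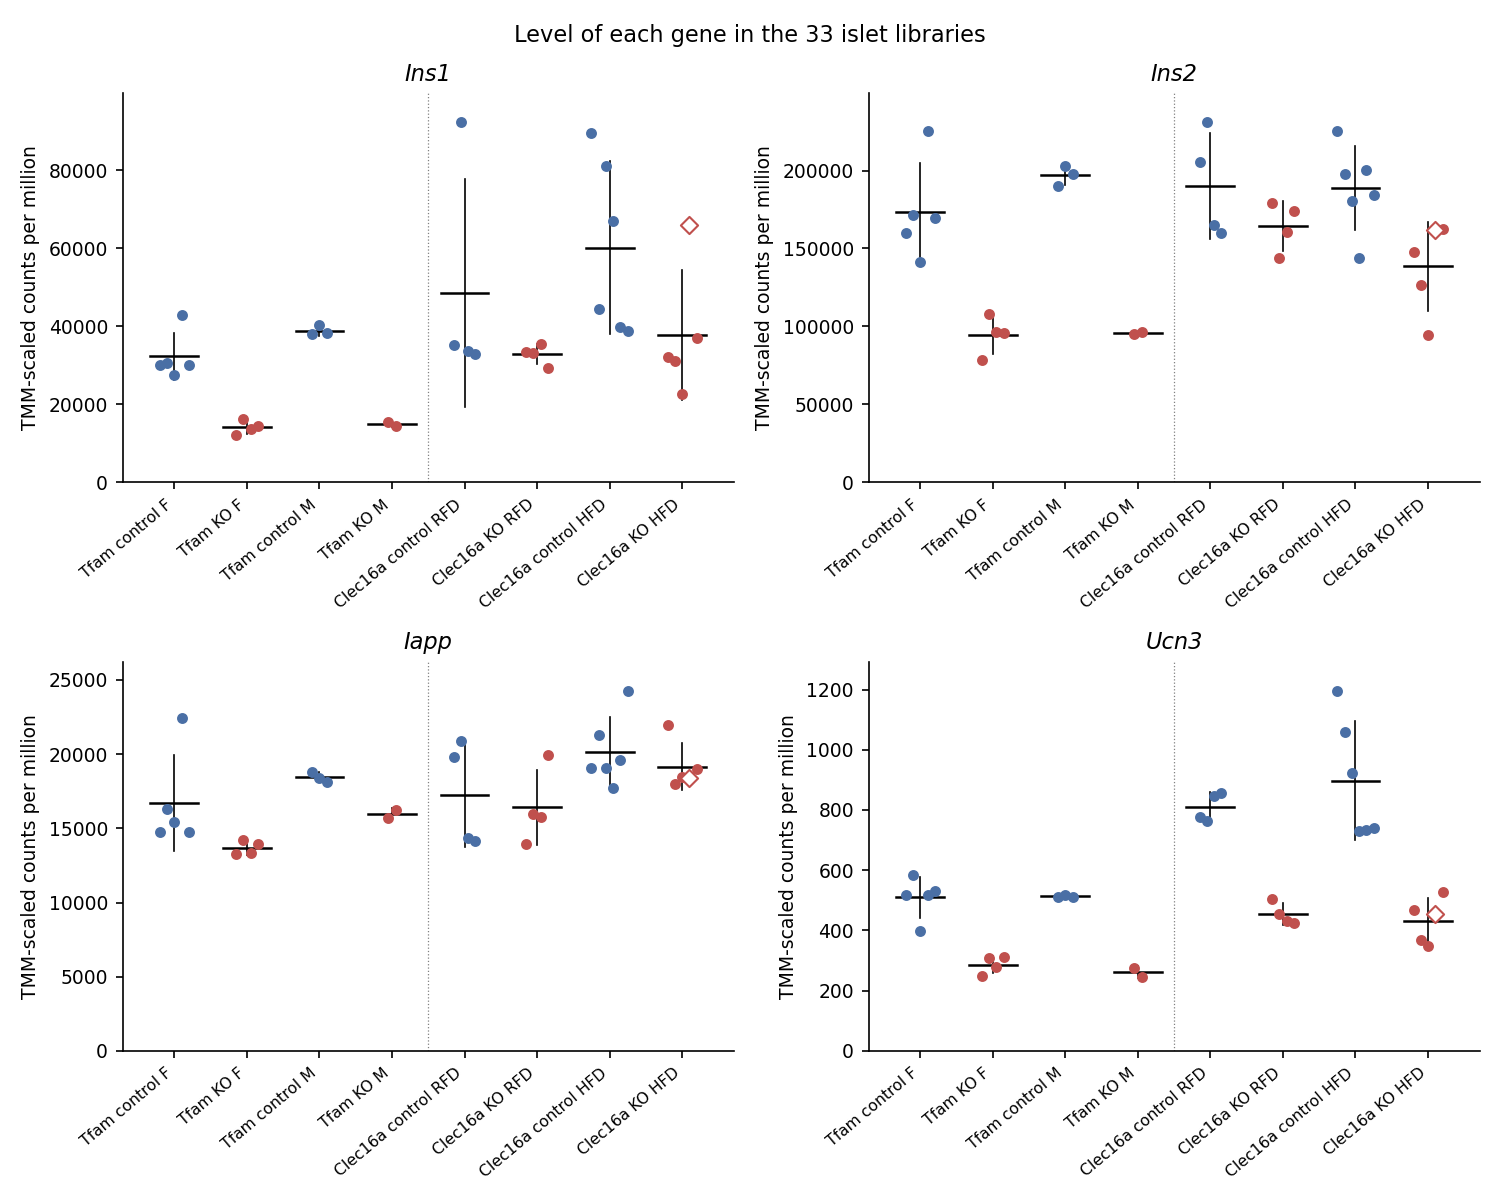
TMM-scaled CPM (linear axis from 0) of Ins1, Ins2, Iapp and Ucn3 in each of the 33 islet libraries, by group, with each point a library and a bar at the mean of the group. Ins1, Ins2 and Ucn3 lie lower in all 6 Tfam KO libraries than in all 8 controls, Ucn3 also lies lower in all Clec16a KO libraries than in the controls on the same diet, and the Iapp levels of Clec16a KO and control libraries overlap.

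Loss of Tfam was compared first. In Tfam KO islets Ins1 stood at 0.418 of the control level, Ins2 at 0.524 and Ucn3 at 0.542. Iapp stood at 0.834 of control. All 4 were called lower, meaning that the p adjusted over all genes by the Benjamini-Hochberg method was at most 0.05. Of the 19752 genes tested over both sexes 20.9% were called in either direction and 9.29% were called lower.

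Ins1 was counted at 30145, 30621, 27621, 42767 and 30169 CPM in control females and at 37899, 40340 and 38178 CPM in control males. In KO islets it was counted at 12086, 16318, 13640 and 14460 CPM in females and at 15416 and 14377 CPM in males. The highest KO library lay well below the lowest control. The log2 fold change was -1.26 (SE 0.10, 95% confidence interval -1.47 to -1.05, adjusted p = 1.76e-07, edgeR quasi-likelihood test with sex as a term), lower in 6 of 6 KO libraries than in any control. Only 1.14% of all genes tested had a lower log2 fold change.

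Ins2 was counted at 159946, 171261, 141646, 225294 and 169516 CPM in control females and at 190342, 202813 and 197562 CPM in control males. In KO islets it was counted at 78187, 107925, 96692 and 95590 CPM in females and at 94991 and 96170 CPM in males. Again no KO library reached the lowest control. Its log2 fold change was -0.93 (SE 0.10, interval -1.14 to -0.73, adjusted p = 4.22e-06, edgeR), with 2.54% of genes lower.

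Ucn3 was counted at 519, 586, 399, 517 and 532 CPM in control females and at 510, 516 and 512 CPM in control males. In KO islets it was counted at 249, 307, 279 and 310 CPM in females and at 275 and 246 CPM in males. The groups did not overlap. This was a log2 fold change of -0.88 (SE 0.08, interval -1.06 to -0.71, adjusted p = 1.31e-06, edgeR), with 2.85% of genes lower. Non-overlap with the KO group lower occurred in 2.66% of all genes tested and in 3 of these 4.

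Iapp was counted at 14725, 16300, 15423, 22419 and 14785 CPM in control females and at 18827, 18424 and 18107 CPM in control males. In KO islets it was counted at 13240, 14204, 13321 and 13931 CPM in females and at 15707 and 16247 CPM in males. Within each sex the KO libraries lay below the controls, but over both sexes the groups overlapped. Iapp had a log2 fold change of -0.26 (SE 0.09, interval -0.44 to -0.08, adjusted p = 0.0395, edgeR), and 20.7% of genes were lower. The call was lost in 10 of the 14 fits that left out 1 library, with adjusted p from 0.0061 to 0.0851 over the 14, and with control female replicate 4, the library with the highest Iapp, left out it was -0.18 (SE 0.04, adjusted p = 0.0061). On the TPM scale the KO means of Iapp were not below the control means: 35574 ± 2162 (n = 5) in control and 39384 ± 668 (n = 4) in KO females, and 41153 ± 1948 (n = 3) in control and 45061 ± 3114 (n = 2) in KO males.

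The sexes were then taken apart. In females the log2 fold changes were -1.19 for Ins1 (adjusted p = 1.25e-05), -0.88 for Ins2 (0.000241), -0.84 for Ucn3 (7.12e-05) and -0.29 for Iapp (0.110, edgeR). In males they were -1.38 for Ins1 (adjusted p = 0.000117), -1.04 for Ins2 (0.00122), -0.98 for Ucn3 (0.000479) and -0.21 for Iapp (0.437, edgeR). 3 of the 4 genes were called lower in each sex, where 4.17% of all genes were in females and 3.69% in males (10.8% and 8.93% in either direction). The male KO group has 2 libraries and borrows its spread from the other groups. The test of the difference between the sexes called none of the 4, with log2 differences (male minus female) of -0.19 for Ins1 (95% interval -0.62 to 0.24), -0.17 for Ins2 (-0.60 to 0.27), -0.14 for Ucn3 (-0.51 to 0.22) and 0.08 for Iapp (-0.31 to 0.48). It called 0 of 19752 genes (0%) with edgeR, where 1230 had an unadjusted p under 0.05, and 34 with DESeq2.

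Markers of the other cells of the sample were read beside these values. All 8 beta cell markers fixed for this check were called lower in Tfam KO islets; they include Ins1, Ins2 and Iapp and also Pdx1, Nkx6-1, Slc2a2, Mafa and G6pc2. None of 6 alpha cell markers was called, and their summed level was 41872 to 54333 CPM in KO females against 50398 to 106725 in control females, and 39059 to 52076 in KO males against 25163 to 34929 in control males. Of 4 delta cell markers, Sst (-0.53) and Hhex (-0.36) were called lower. By sex, 2 of the 4 were called lower in females (median log2 fold change -0.43) and none in males (median 0.04). None of 14 acinar markers and none of 5 endothelial markers was called, and 2 of 7 mesenchymal markers, Col1a1 (1.38) and Col3a1 (1.04), were called higher. The acinar markers went opposite ways in the sexes, with a median log2 fold change of -1.02 in females and 1.29 in males. None of them was called in either sex. Also called higher were 1 of 6 duct markers, Krt7 (0.35), 1 of 6 macrophage markers, Cd68 (0.91), and 1 of 3 glial markers. Of 2 lymphocyte markers tested, Cd79a was called lower (-2.09). In males alone 3 duct, 2 macrophage, 3 mesenchymal and 1 of 5 endothelial markers were called higher, and their summed levels in the 2 KO males lay above the 3 control males for duct (336 to 404 against 250 to 269 CPM), macrophage (176 to 186 against 106 to 115 CPM) and mesenchymal markers (81.3 to 84.4 against 31.9 to 45.8 CPM). No marker of the alpha, delta, acinar, endothelial or mesenchymal lists was at 0 in any library. The part of cell composition in the changes of the 4 genes was not tested.

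Loss of Clec16a was compared on each diet. In islets labelled Clec16a KO, 1 of the 4 genes, Ucn3, was called lower on RFD and on HFD, at 0.559 and 0.483 of the control level. Ins1, Ins2 and Iapp were not called on either diet. Of 17254 genes tested 7.52% were called on RFD (3.54% lower) and 9.57% on HFD (3.95% lower). The comparisons on the 2 diets share no library.

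On RFD, Ucn3 was counted at 777, 764, 845 and 857 CPM in controls and at 506, 456, 430 and 423 CPM in KO islets. Every KO library lay below every control, which was so for 7.33% of all genes. The log2 fold change was -0.84 (SE 0.16, interval -1.17 to -0.51, adjusted p = 0.00512, edgeR), with 4.56% of genes lower. On HFD, Ucn3 ran from 730 to 1196 CPM in the 6 controls (median 830.5) and was counted at 469, 368, 347, 454 and 527 CPM in KO islets. The groups did not overlap, which was so in this direction for 1.36% of all genes. Here the log2 fold change was -1.05 (SE 0.14, interval -1.34 to -0.76, adjusted p = 0.000259, edgeR), with 2.05% of genes lower. The library labelled KO HFD replicate 4 had 454 CPM, inside the range of the other KO libraries, and without it the change was -1.07 (SE 0.15, adjusted p = 3.79e-05). Without the 5 libraries with a high Ins1 count relative to Ins2 the RFD change was -0.87 (adjusted p = 0.00168) and the HFD change -0.99 (0.000416, edgeR).

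The Clec16a libraries came from 2 sequencing lanes, each holding both genotypes. In lane 7 Ucn3 lay at 423 to 506 CPM in KO (n = 3) against 764 to 777 in controls (n = 2) on RFD, and at 469 to 527 (n = 2) against 922 to 1196 (n = 3) on HFD. In lane 8 it lay at 456 CPM in the single KO library against 845 to 857 in controls (n = 2) on RFD, and at 347 to 454 (n = 3) against 730 to 739 (n = 3) on HFD. The groups were apart in both lanes. With lane as a term the RFD log2 fold change was -0.90 (SE 0.14, adjusted p = 0.00384) and that on HFD was -1.02 (SE 0.12, adjusted p = 0.000199, edgeR).

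Ins1 on RFD was counted at 35211, 92245, 33606 and 32951 CPM in controls and at 33352, 33124, 35465 and 29315 CPM in KO islets. A single control library, replicate 2, stood far above the rest. The log2 fold change was -0.56 (SE 0.35, interval -1.30 to 0.17, adjusted p = 0.369), and -0.05 (adjusted p = 0.949, edgeR) without that control. On HFD, Ins1 ran from 38879 to 89532 CPM in controls (n = 6, median 55737) and was counted at 32197, 31058, 22700, 65854 and 36962 CPM in KO islets, the value of 65854 being that of replicate 4. The log2 fold change was -0.67 (SE 0.30, interval -1.30 to -0.04, adjusted p = 0.185), and without replicate 4 it was -0.97 (SE 0.29, adjusted p = 0.0239, edgeR), which is past the threshold. Without all 5 libraries with a high ratio of Ins1 to Ins2, a choice that uses Ins1 itself and takes out 4 controls and 1 KO library, it was -0.42 on HFD (SE 0.14, adjusted p = 0.0421) and -0.05 on RFD (adjusted p = 0.868, edgeR).

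Ins2 on RFD was counted at 205400, 230920, 164827 and 159859 CPM in controls and at 179252, 144019, 160469 and 174104 CPM in KO islets, and the groups overlapped (log2 fold change -0.21, SE 0.17, interval -0.57 to 0.15, adjusted p = 0.515, edgeR). On HFD, Ins2 ran from 144053 to 225188 CPM in controls (n = 6, median 191096) and was counted at 147605, 126480, 94285, 161709 and 162371 CPM in KO islets. The lowest control lay among the KO libraries. The log2 fold change was -0.45 (SE 0.15, interval -0.76 to -0.13, adjusted p = 0.0652, edgeR). It was past the threshold without KO HFD replicate 4 (-0.51, adjusted p = 0.0216), without control HFD replicate 4 (-0.51, 0.0335), without the 5 libraries (-0.56, 0.0233) and in DESeq2 (-0.44, 0.0173).

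Iapp on RFD was counted at 19802, 20860, 14320 and 14136 CPM in controls and at 13915, 15991, 15771 and 19970 CPM in KO islets. On HFD it ran from 17694 to 24271 CPM in controls (n = 6, median 19341) and was counted at 21967, 18010, 18486, 18380 and 18988 CPM in KO islets. The groups overlapped on both diets. Genotypes differed by a log2 fold change of -0.07 on RFD (SE 0.15, interval -0.38 to 0.23, adjusted p = 0.821) and by -0.07 on HFD (SE 0.13, interval -0.34 to 0.19, adjusted p = 0.790, edgeR).

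Beside these values, 5 of 5 endothelial markers (Pecam1, Cdh5, Kdr, Plvap, Flt1) were called higher in the islets labelled Clec16a KO on both diets. Their summed level was 575 to 685 CPM in KO and 341 to 371 CPM in control libraries on RFD, and 368 to 687 against 326 to 436 CPM on HFD. Mesenchymal markers were called higher in 2 of 7 on RFD and 4 of 7 on HFD. None of 6 alpha, 4 delta and 14 acinar markers was called on either diet, and of 8 beta cell markers Slc2a2 was called, lower on both. Without KO HFD replicate 4, 3 of the 8 beta cell markers (Ins1, Ins2 and Slc2a2) and 1 of the 6 alpha cell markers (Slc7a2) were called lower on HFD. That fit called 20.0% of 16860 genes in either direction. Of the other lists, the duct marker Spp1 was called higher (2.55 on RFD and 1.77 on HFD) and the macrophage marker C1qa lower (-1.02 and -0.61) on both diets. Cd79a, 1 of 3 lymphocyte markers, was also called lower on both. A glial marker (1 of 3) was called lower on RFD, and a hepatocyte marker (1 of 4) on HFD. Summed acinar levels overlapped between genotypes, at 2417 to 16801 CPM in KO and 5563 to 12598 in control libraries on RFD, and 10725 to 24825 against 12097 to 37542 on HFD. No marker of the endothelial, mesenchymal, alpha, delta or acinar lists was at 0 in any library. The part of cell composition in the change of Ucn3 was not tested.

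**Figure D2:**
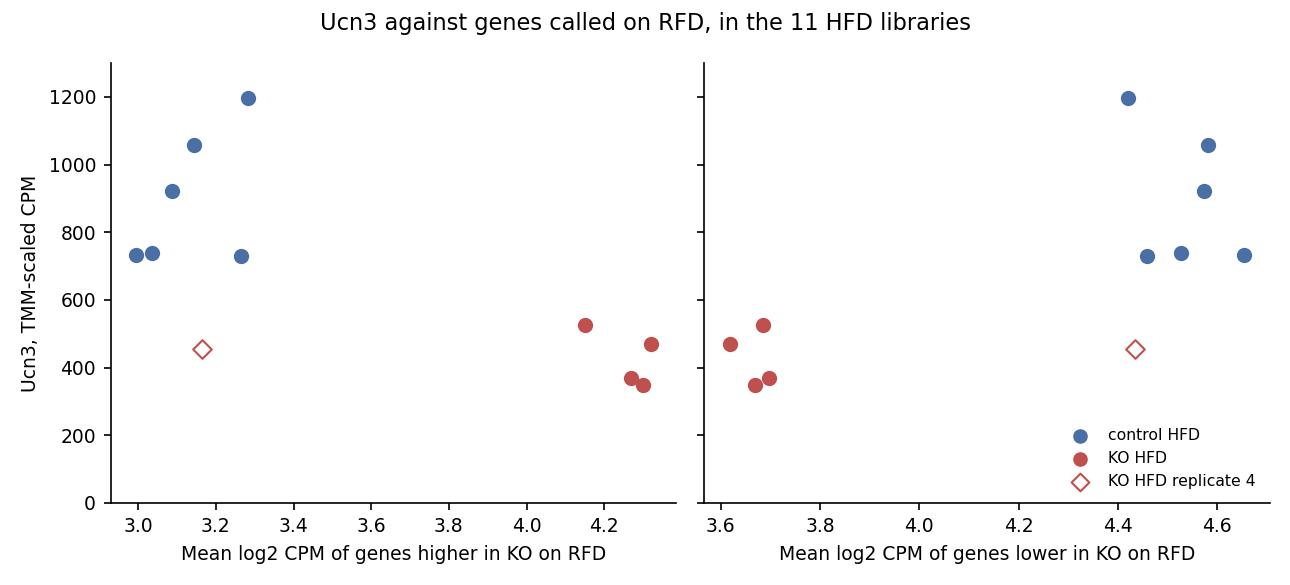
Ucn3 (TMM-scaled CPM, linear axis) in the 11 HFD libraries against the mean log2 CPM of the genes called higher (688) and lower (610) in Clec16a KO islets on RFD; each point is a library. The library labelled KO HFD replicate 4 lies among the controls along both horizontal axes (3.16 and 4.43) and among the KO libraries in Ucn3 (454).

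Diet was compared within each genotype of the Clec16a experiment, and these comparisons share libraries with those above. None of the 4 genes was called in either genotype, where 0.0406% of genes (7 of 17254) were called in controls and 0.0116% (2) in KO islets, with 973 and 946 genes at an unadjusted p under 0.05. In controls the log2 changes from RFD to HFD were 0.31 for Ins1 (95% interval -0.36 to 0.98), -0.01 for Ins2 (-0.34 to 0.32), 0.22 for Iapp (-0.06 to 0.50) and 0.14 for Ucn3 (-0.15 to 0.44). In KO islets they were 0.20 for Ins1 (-0.49 to 0.90), -0.25 for Ins2 (-0.59 to 0.09), 0.22 for Iapp (-0.07 to 0.52) and -0.07 for Ucn3 (-0.38 to 0.24). Without KO HFD replicate 4 the changes in KO islets were -0.09 for Ins1, -0.31 for Ins2, 0.24 for Iapp and -0.09 for Ucn3. The response to Clec16a loss was not called different between the diets for any of the 4 genes, with differences (HFD minus RFD) of -0.21 for Ucn3 (-0.64 to 0.22), -0.24 for Ins2 (-0.71 to 0.24), -0.11 for Ins1 (-1.07 to 0.85) and 0.00 for Iapp (-0.40 to 0.40). Without KO HFD replicate 4 these differences were -0.23 for Ucn3, -0.30 for Ins2, -0.40 for Ins1 and 0.02 for Iapp, none of them called. That test called 0 of 17254 genes (0%) with edgeR, 406 at an unadjusted p under 0.05, and 20 with DESeq2. Summed alpha cell markers were lower on HFD (33660 to 52224 CPM in controls) than on RFD (57126 to 79090), and so they were in KO islets (43638 to 58448 against 60316 to 131206 CPM), without overlap in either genotype, and none of the 6 was called. Their median log2 change from RFD to HFD was -0.59 in controls and -0.66 in KO islets. The 14 acinar markers moved further, with medians of 1.19 and 1.28, and none of them was called.

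The responses to loss of Tfam and of Clec16a, each taken against its own controls and averaged over sexes or diets, were then compared in 1 fit of all 33 libraries. The response of Ins2 differed: its log2 fold change was lower in the Tfam experiment (difference -0.66, SE 0.17, interval -0.999 to -0.32, adjusted p = 0.00595, edgeR), where 16.3% of 19909 genes were called and 8.71% in this direction. The difference for Ins1 was of like size but uncertain (-0.70, SE 0.31, interval -1.32 to -0.07, adjusted p = 0.126), and without Clec16a control RFD replicate 2 it was past the threshold (-0.93, adjusted p = 0.0127). For Ucn3 the difference was 0.01 (interval -0.29 to 0.31). For Iapp it was -0.20 (interval -0.49 to 0.09, adjusted p = 0.382). Without Clec16a KO HFD replicate 4 the differences were -0.62 for Ins2, -0.54 for Ins1, 0.02 for Ucn3 and -0.21 for Iapp, with only Ins2 called. The experiments were sequenced at different depths and differ in design, which cannot be told apart from the gene deleted.

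**Figure D3:**
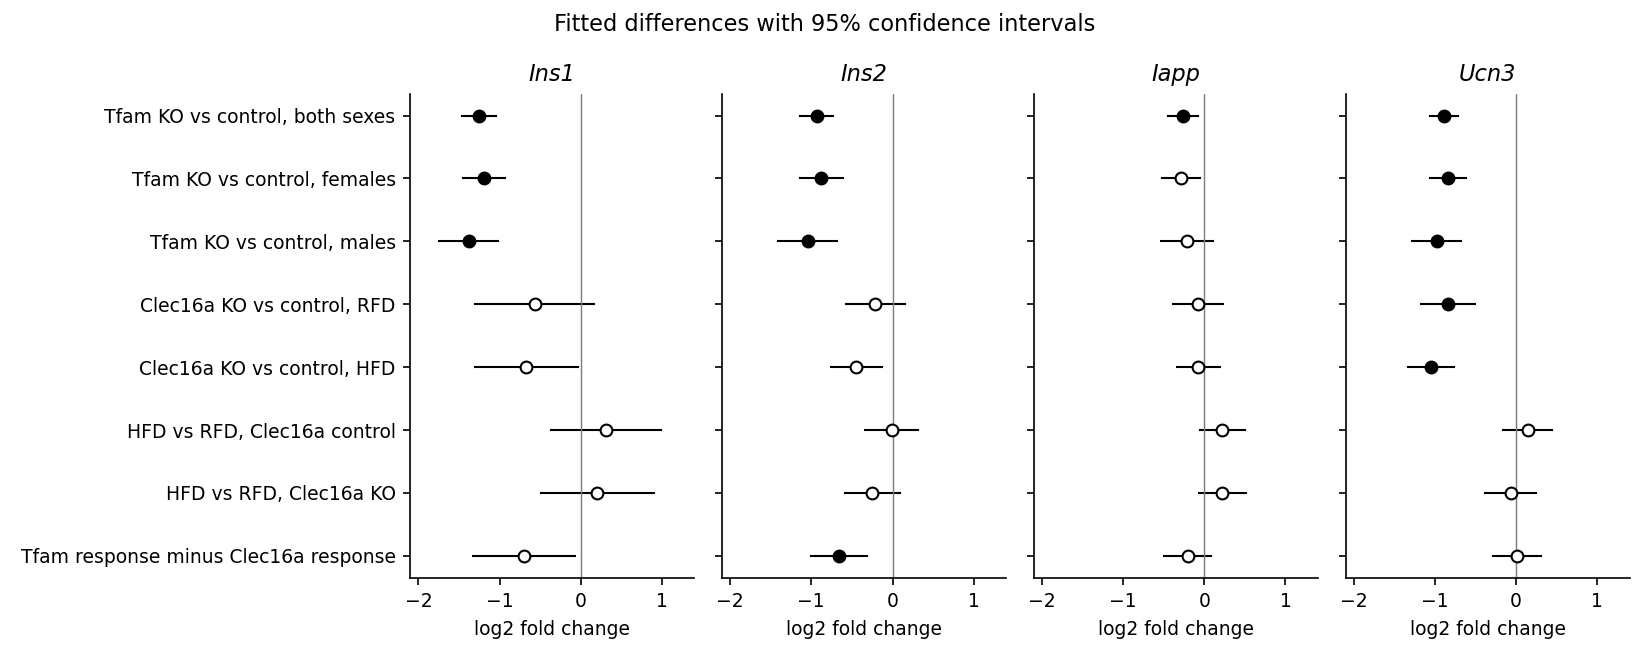
Log2 fold changes (horizontal axis) of the 4 genes in each comparison (rows), with points at the fitted value and bars for the 95% confidence interval; the vertical line marks 0. The intervals of Ucn3 lie below 0 for Tfam loss (-0.88) and for Clec16a loss on RFD (-0.84) and HFD (-1.05), while those of Ins1 and Ins2 are furthest below 0 for Tfam loss.

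Per length, the order of group means can be read across both experiments from TPM, as a description without a test. Ucn3 was highest in Clec16a controls, at 1233 ± 173 TPM on HFD and 1147 ± 171 on RFD, followed by Tfam controls at 753 ± 18.2 in males and 730 ± 141 in females. Clec16a KO islets followed at 683 ± 69.6 TPM on HFD and 657 ± 45.4 on RFD, and Tfam KO islets were lowest, at 542 ± 42.3 in females and 483 ± 15 in males. Neighbouring groups in this order overlapped except between RFD controls and Tfam control males and between Clec16a KO on RFD and Tfam KO females. For Ins2 the order ran from Tfam control males (325714 ± 4570 TPM) to Tfam KO males (200050 ± 10798), and neighbouring groups overlapped except for the first and the next, Clec16a RFD controls (298010 ± 25045). For Ins1 it ran from HFD controls (114695 ± 35737 TPM) to Tfam KO females (37259 ± 3896), with gaps only between Tfam control males and Clec16a KO on RFD and between Tfam control females and Tfam KO males. For Iapp all neighbouring groups overlapped.

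The balance among the 4 genes was measured within each library as counts per 100 Ins2 counts, which does not depend on how libraries are scaled. In Tfam KO islets Ins1 fell and Iapp rose relative to Ins2, while the ratio of Ucn3 to Ins2 differed by less than the spread between libraries. Few genes fell further than Ins2, as given above, and the median log2 fold change over all genes was -0.01. Most genes therefore rose relative to Ins2, so the rise of this ratio is not particular to Iapp, whose own level was lower in KO. Ins1 stood at 19.02 ± 0.820 per 100 Ins2 counts in controls (n = 8, 17.8 to 19.9) and at 15.2 ± 0.691 in KO (n = 6, 14.1 to 16.2), a log2 difference of -0.32 without overlap (exact permutation test within sex, two-sided p = 0.0008, adjusted p = 0.0083 over 21 tests). Iapp stood at 9.55 ± 0.680 in controls (8.72 to 10.9) and at 15.3 ± 1.68 in KO (13.2 to 16.9), a log2 difference of 0.68 without overlap (exact p = 0.0008, adjusted p = 0.0083). A p of 0.0008 is the smallest this design allows. Ucn3 stood at 0.284 ± 0.0390 in controls and 0.293 ± 0.0249 in KO (log2 difference 0.05, exact p = 0.628). By sex the log2 differences were -0.31 for Ins1 and 0.59 for Iapp in females (each exact p = 0.0079, adjusted p = 0.0333). In males they were -0.34 and 0.83 (each exact p = 0.1, the smallest that 2 against 3 libraries allow). With 1 female library left out, the adjusted p of the permutation test was 0.075 to 0.1 in all 9 sets. The groups stayed apart in each set. These are the smallest values that sets of such size allow, so the call could not be kept.

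In the Clec16a islets Ucn3 was low relative to Ins2 in KO libraries. On RFD it stood at 0.440 ± 0.100 per 100 Ins2 counts in controls (n = 4, 0.331 to 0.536) and at 0.277 ± 0.0305 in KO (n = 4, 0.243 to 0.316), a log2 difference of -0.64 without overlap (exact p = 0.0286, the smallest 4 against 4 libraries allow, adjusted p = 0.1). On HFD it stood at 0.475 ± 0.0726 in controls (n = 6) and at 0.316 ± 0.0342 in KO (n = 5), a log2 difference of -0.58 (exact p = 0.0065, adjusted p = 0.0333). That call was lost in 9 of 11 sets with 1 library left out. The set without KO HFD replicate 4 was among them (-0.54, adjusted p = 0.06, exact permutation test). Without the 5 libraries with a high Ins1 count the difference was -0.40 (adjusted p = 0.175). In lane 7 the log2 difference was -0.42 for RFD and -0.71 for HFD, and in lane 8 it was -0.73 and -0.44. Iapp stood at 10.8 ± 1.69 in controls and 14.4 ± 3.31 in KO on HFD (log2 difference 0.39, exact p = 0.0346, adjusted p = 0.104) and at 9.05 ± 0.418 and 10.04 ± 1.67 on RFD (0.13, exact p = 0.343, adjusted p = 0.48), and neither passed. Ins1 relative to Ins2 was spread from 17.1 to 39.9 in RFD controls and from 19.9 to 46.6 in HFD controls, and its differences between genotypes were -0.21 on RFD (exact p = 0.657) and -0.22 on HFD (exact p = 0.496). Between diets no ratio passed after adjustment, the nearest being Iapp in KO islets (log2 difference 0.50 on HFD over RFD, exact p = 0.0476, adjusted p = 0.125).

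**Figure D4:**
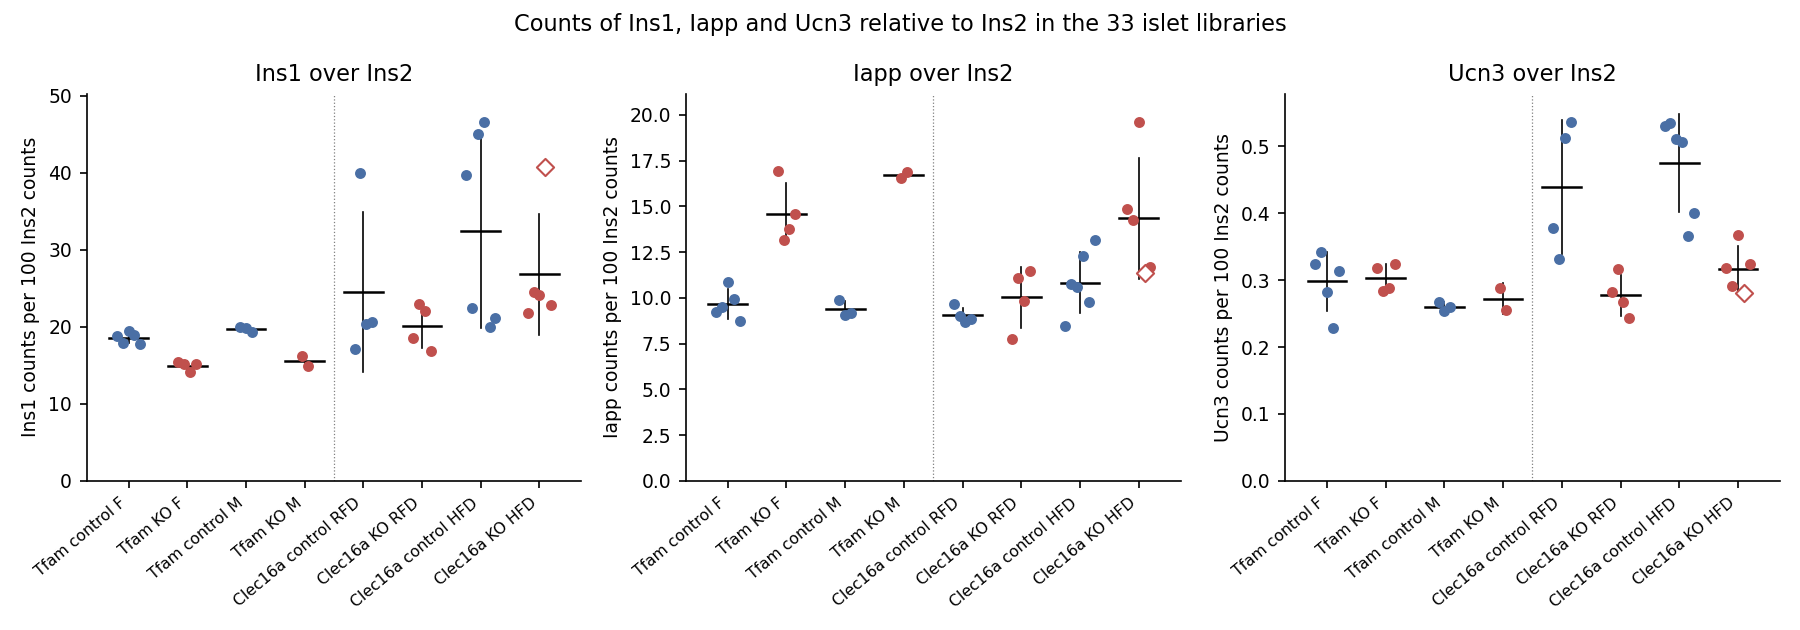
Counts of Ins1, Iapp and Ucn3 per 100 Ins2 counts (linear axes from 0) in each of the 33 islet libraries by group, with each point a library and a bar at the group mean. Tfam KO libraries lie at 14.1 to 16.2 for Ins1 and 13.2 to 16.9 for Iapp, against 17.8 to 19.9 and 8.72 to 10.9 in controls, and 5 Clec16a libraries lie at 39.8 to 46.6 for Ins1.

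Around the 4 genes, 5 lists of related genes were read: regulators of insulin transcription, prohormone processing and granule genes, receptors and their partners, relatives in the peptide families, and genes that couple glucose to secretion. Among all genes tested 11.6% were called higher in Tfam KO islets, 3.99% in Clec16a KO on RFD and 5.62% on HFD, beside the shares called lower given above. Of 14 regulators 9 were called lower and 1 higher in Tfam KO islets (median log2 fold change -0.46, against -0.01 over all genes). Isl1, a LIM homeodomain factor of endocrine cells, was lower by a log2 fold change of -0.74 (adjusted p = 1.99e-06), Pdx1, the homeodomain activator of insulin genes, of -0.60 (6.75e-06), Nkx2-2 of -0.53 (2.17e-05) and Pax6 of -0.42 (8.95e-05, edgeR). Pdx1 was counted at 202 ± 13.8 CPM (n = 5) in control and 138 ± 14.3 CPM (n = 4) in KO females. In the Clec16a islets 1 of 14 was called on each diet (medians -0.05 on RFD and -0.20 on HFD), in both cases Mlxipl, which encodes the glucose-responsive factor ChREBP, with -1.10 (adjusted p = 0.00643) on RFD and -0.95 (0.00386, edgeR) on HFD. Without KO HFD replicate 4 the HFD count was 3 of 14, in a fit that called 20.0% of 16860 genes in either direction. Mlxipl (-1.09, adjusted p = 0.000399), Isl1 (-0.47, 0.00205) and Pax6 (-0.36, 0.0473, edgeR) were the 3 called, all lower. Mafa, an activator of insulin genes in mature beta cells, had -0.63 on HFD (adjusted p = 0.0538, not called), and Pdx1 was counted at 168 ± 18.7 CPM in controls and 177 ± 24.1 in KO on RFD (n = 4 each).

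Of 15 processing and granule genes 6 were called lower and none higher in Tfam KO islets (median -0.22). Among them were Ero1b, an oxidase that forms disulfide bonds of proinsulin (-0.94, adjusted p = 2.20e-06, listed in the files as Ero1lb), Chga, a granule matrix protein (-0.83, 1.24e-05), Pcsk1, a prohormone convertase (-0.49, 0.000289), and Slc30a8, the zinc transporter of insulin granules (-0.61, 0.00045, edgeR). Among Clec16a islets, with every library in the fit, all calls of this list were higher. They were 3 on RFD (median 0.16) and 5 on HFD (median 0.07), with none lower. Vgf, a neuroendocrine granule peptide precursor, rose by 2.06 on RFD (adjusted p = 0.00868) and 2.05 on HFD (0.00196), and Scg2 by 0.68 (0.0331) and 0.59 (0.0256, edgeR). Ptprn, a granule membrane protein, rose by 0.60 on RFD (adjusted p = 0.0397) and 0.49 on HFD (0.0373), and Chgb by 0.91 on HFD (0.0109, edgeR). Tested directly, 9 of the 15 responses differed between the experiments, all lower in the Tfam experiment, where 8.71% of all genes were. Without the library labelled Clec16a KO HFD replicate 4 the HFD counts were 5 higher and 3 lower (Slc30a8, Ero1b and Ptprn2), in a fit that called 20.0% of 16860 genes. In that fit Vgf had 2.31, Chgb 1.11, Scg2 0.75 and Ptprn 0.62, while Slc30a8 had -1.26, Ero1b -0.45 and Ptprn2 -0.34. Slc30a8 and Ero1b were thus lower as in Tfam KO islets. Without that library 9 of the 15 responses still differed between the experiments, all lower in the Tfam experiment, where 10.5% of all genes were.

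Of 6 genes of glucose coupling 4 were called lower in Tfam KO islets (median -0.47): Slc2a2, the glucose transporter GLUT2 (-1.01, adjusted p = 3.76e-05), G6pc2, an islet glucose-6-phosphatase (-1.37, 6.61e-05), Ffar1, a fatty acid receptor (-0.46, 0.00356), and Glp1r, the GLP-1 receptor (-0.48, 0.00717, edgeR). On loss of Clec16a 3 of 6 were called lower on each diet (median -0.30 on RFD and -0.32 on HFD). Slc2a2 fell by 1.47 on the log2 scale on RFD (adjusted p = 0.0137) and by 1.26 on HFD (0.0108), and Glp1r by 0.71 (0.0101) and 0.65 (0.00464). Ffar1 fell by 0.60 (adjusted p = 0.0154) and 0.56 (0.00718, edgeR). Slc2a2 was counted at 748 ± 155 CPM in controls and 270 ± 76.4 CPM in KO on RFD (n = 4 each). On HFD it was counted at 692 CPM in KO replicate 4, against 170 to 223 in the other KO and 591 to 785 in the control libraries. Without that library the same 3 genes were called lower on HFD, Slc2a2 with -1.87, Glp1r with -0.83 and Ffar1 with -0.66. That fit called 20.0% of 16860 genes in either direction. Abcc8 and Kcnj11, the subunits of the ATP-sensitive potassium channel, were not called in any of these comparisons (Abcc8 0.10, 0.00 and -0.01, Kcnj11 -0.13, 0.01 and -0.08 for Tfam, RFD and HFD).

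Of 14 peptide relatives 7 passed the filter on low counts. Of these 3 were called higher in Tfam KO islets and 2 on each Clec16a diet, and none was called lower. The 7 that passed may have done so through the group in which they are high. The count is therefore a description, and so are the fold changes and p-values of these genes below. Adm2, which encodes intermedin, a peptide of the calcitonin family to which amylin belongs, was counted at 0.384 ± 0.101 CPM in control (n = 5) and 5.43 ± 0.584 CPM in KO females (n = 4), and at 0.313 ± 0.251 (n = 3) and 7.23 ± 0.792 CPM (n = 2) in males. In the Clec16a islets Adm2 was counted at 1.32 ± 0.859 and 23.9 ± 2.71 CPM on RFD (n = 4 each) and at 1.41 ± 0.827 (n = 6) and 29.7 ± 17.1 CPM (n = 5) on HFD. Its log2 fold changes were 4.08 (adjusted p = 2.34e-08), 4.17 (0.00386) and 4.45 (0.000416, edgeR). KO HFD replicate 4 had 0.602 CPM of Adm2, against 28.8 to 42.8 in the other KO and 0.642 to 2.85 in the control libraries, and without it the HFD changes were 4.78 for Adm2 and 3.80 for Adm. Adm, adrenomedullin of the same family, rose by 2.55 (adjusted p = 0.000999), 2.44 (0.0499) and 3.47 (0.00196, edgeR), from group means of at most 0.183 CPM in controls. Insl6, of the insulin and relaxin family, rose by 1.12 in Tfam KO islets (adjusted p = 0.0296, edgeR). Crh had 0 counts in every islet library, and Ucn2, another ligand of the urocortin family, was at most 0.134 CPM in a library.

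Of 11 receptors and partners 2 were called higher and 1 lower in Tfam KO islets (median 0.02). Insr, the insulin receptor, rose by 0.41 (adjusted p = 0.00397), Igf1r by 0.34 (0.0403), and Ramp1, a partner of the calcitonin receptor, fell by 0.87 (0.00803, edgeR). Of these, 10 were tested in the Clec16a experiment. On RFD Ramp3 was called higher (0.74, adjusted p = 0.0255) and Irs1, an insulin receptor substrate, lower (-0.63, 0.00638), and on HFD Ramp3 was called higher (0.68, 0.0141, edgeR). Without KO HFD replicate 4 the HFD calls were Ramp3 (0.84) and Ramp2 (0.69) higher and Crhr1, a receptor of corticotropin-releasing factor, lower (-1.72, adjusted p = 0.0446, edgeR). That fit called 20.0% of 16860 genes in either direction. The receptors of amylin and of the urocortins were low: group means were at most 0.227 CPM for Calcr, 2.61 CPM for Crhr1 and 3.36 CPM for Crhr2. Crhr1 had -0.70 in Tfam KO islets (adjusted p = 0.0855, edgeR) and was not called.

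**Figure D5:**
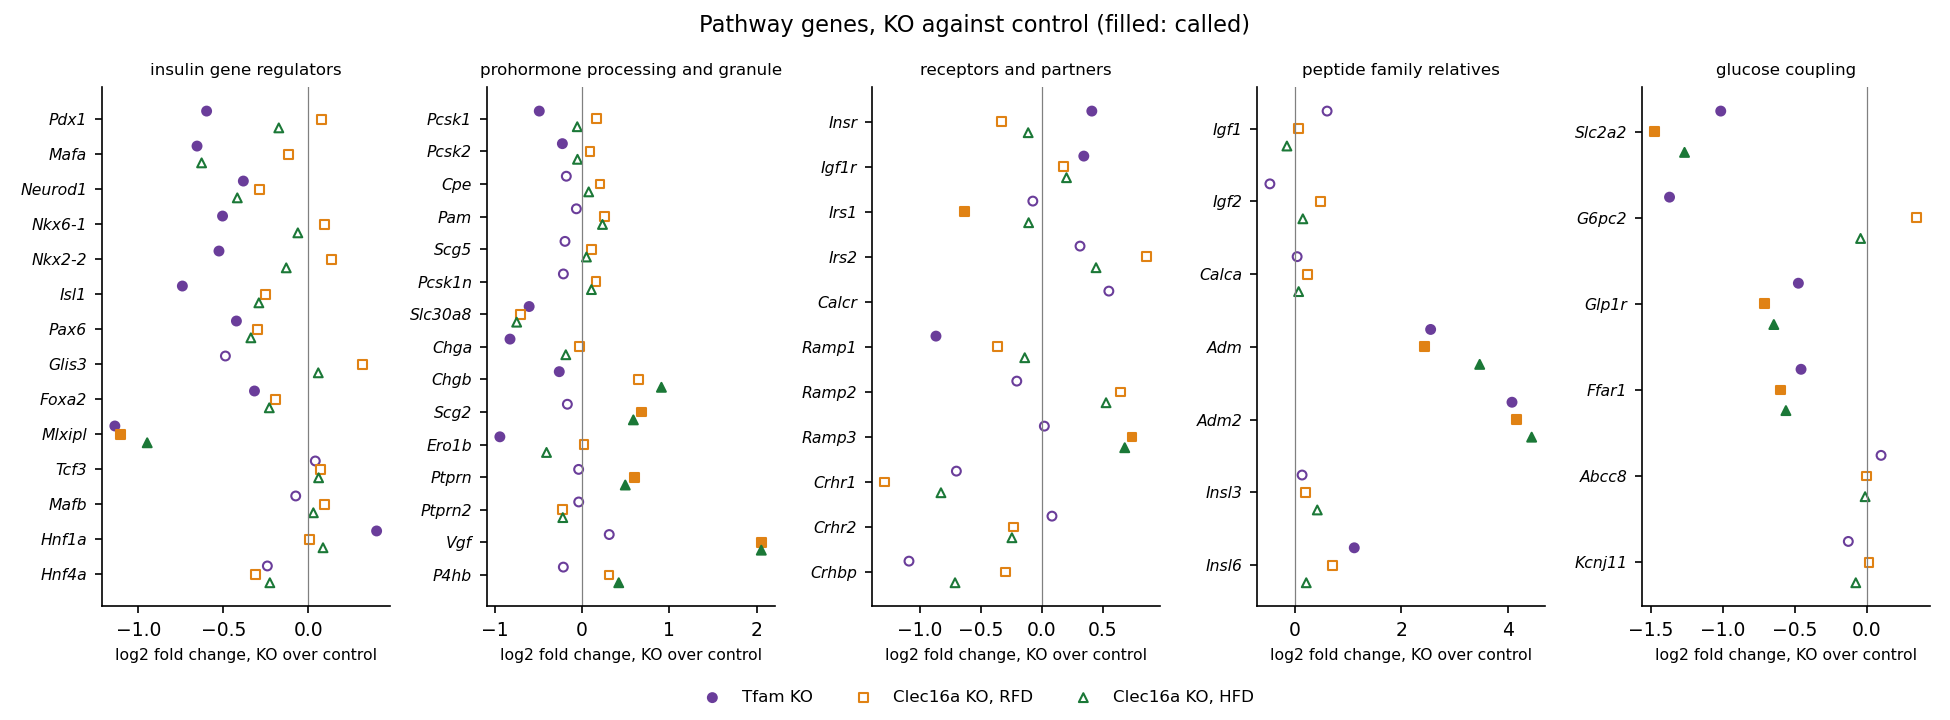
Log2 fold change, KO over control (horizontal axes), of the genes of the 5 related lists that were tested for Tfam over both sexes and Clec16a on RFD and HFD; each point is a gene in a comparison, and filled points were called at an adjusted p of at most 0.05. Regulators of insulin transcription lie mostly below 0 for Tfam (9 of 14 called lower), Slc2a2 and Glp1r lie below 0 in all 3 comparisons, and Adm2 lies above 4 in all 3.

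Genes with a pattern like that of each of the 4 were looked for by the smaller of 2 Pearson correlations of log2 CPM, over the 14 Tfam and over the 19 Clec16a libraries, among 10513 genes with a mean of at least 5 CPM in both. The correlations are descriptions: they run over libraries of both genotypes, which share their depth and composition. A gene picked for likeness over these libraries tends to share the difference between genotypes. Fold changes and p-values of the genes picked this way are therefore descriptions too. Ucn3 was most like Tmem215 (r = 0.98 and 0.90), Itpkb (0.93 and 0.89), Pkp4 (0.93 and 0.88), Cd79a (0.95 and 0.87) and Lrfn4 (0.94 and 0.87). Tmem215, which encodes a transmembrane protein, was counted at 336 ± 30.1 CPM in the Tfam controls (n = 8) and 151 ± 20.7 CPM in KO (n = 6). Its log2 fold changes were -1.17 (adjusted p = 3.35e-08) for Tfam, -0.87 (0.0125) for Clec16a on RFD and -1.06 (0.00102, edgeR) on HFD. In KO HFD replicate 4 Tmem215 had 267 CPM, between the other KO libraries (107 to 161) and the controls (292 to 358), and without it the HFD change was -1.35. Itpkb, an inositol phosphate kinase, had -0.78 (adjusted p = 1.93e-05), -0.79 (0.00358) and -0.76 (0.000723, edgeR), the last being -0.83 without KO HFD replicate 4.

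Cd79a encodes a chain of the B cell receptor complex. It was counted at 11.1 ± 2.13 CPM in the Tfam controls (n = 8) and 2.62 ± 0.945 CPM in KO (n = 6). Its level in the Clec16a experiment was 12.5 ± 4.38 CPM in controls and 2.52 ± 0.618 CPM in KO on RFD (n = 4 each), and at 10.6 ± 2.67 (n = 6) and 3.99 ± 3.92 CPM (n = 5) on HFD. Its log2 fold changes were -2.09 (adjusted p = 1.97e-06), -2.33 (0.00754) and -1.40 (0.0316, edgeR), the last being -1.43 without KO HFD replicate 4. Of 3 other B and T cell genes, Cd79b, Cd3e and Cd2, none was called in the 3 comparisons where it passed the filter on low counts. Cd79b reached 10.6 CPM in a KO library on HFD.

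Ins2 was most like Asl (r = 0.93 and 0.91), an enzyme of the urea cycle, then Apeh (0.87 and 0.85), Orai3 (0.84 and 0.89), Hadh (0.93 and 0.81) and 2900093K20Rik (0.86 and 0.80). Ins1 was most like Ldhb, a lactate dehydrogenase subunit, with only 0.78 and 0.76, and Iapp like Txndc15 with 0.83 and 0.78. Among the 4 genes themselves Ins1 and Ins2 had r = 0.99 in the Tfam and 0.58 in the Clec16a islets. Ucn3 had 0.95 and 0.71 with Ins2, and 0.94 and 0.59 with Ins1. Iapp was furthest from the rest, with 0.78 and 0.25 with Ins2, 0.78 and 0.24 with Ins1, and 0.59 and 0.12 with Ucn3.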

How the data were processed

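RNA of mouse islets was read in 33 libraries (14 in the Tfam and 19 in the Clec16a experiment) on an Illumina instrument. The submitters' processing notes name STAR 2.6.1b, RSEM 1.3.1, featureCounts, DESeq2 and GRCm38, with no roles or order. Per the file headers, the deposited files give raw counts, TPM and CPM for 55487 genes. All deposited counts were whole and entered the fits unchanged. The authors' CPM equalled the count over the library's total and was not used further. The authors' TPM served only to set genes side by side per length. How reads that fit both Ins1 and Ins2 were counted, and whether by strand, is not given in the sources used here.

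Groups came from the labels, and the lane of the Clec16a libraries from the file names. Each experiment was fitted on its own, and all 33 libraries together for the difference between the experiments, in R 4.3.3 with edgeR 4.0.16: TMM, filterByExpr on the group, quasi-likelihood F-test, Benjamini-Hochberg adjustment over all genes tested, two-sided, with a call at 0.05 or less. Fits had 1 mean per group, except Tfam over both sexes, which had sex as a term. Fold changes are log2, and group values are mean ± SD. SEs were derived from each log2 change and its F statistic. Ratios were compared by exact permutation tests (Python 3.11.15 with NumPy 2.4.6), adjusted over 21 tests. The procedure was tested on simulated counts. Alternatives were DESeq2 1.42.0 (size factors and Wald test), other filters, library sizes without the 4 genes, acinar score, lane or replicate number as a term, no sex term, only the compared groups, and each library left out. Intervals cover the spread between libraries.

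The 4 genes and the lists were chosen with earlier results of these data known. The related genes named are at most the 4 of a list with the smallest p in a genotype comparison, and the 5 genes most like each of the 4. Genes named outside this rule (Mafa, Pdx1, Chgb, Ptprn, Abcc8, Kcnj11, Crh, Ucn2, the other receptors, Cd79b, Cd3e and Cd2) were chosen after their values were seen. Livers were used only to read the 4 genes. Some genes are not reported here and were left out of the lists.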

Additional observations from a re-analysis of the deposited data

Results flagged for a closer look

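In each of the 6 groups of 4 to 6 libraries, the highest and the lowest value of each of the 4 genes and of the 3 ratios to Ins2 were compared with the rest by Dixon's criterion, 42 sets of values in all. Chance passes it in about 1 in 20 sets. It was passed 6 times. Female Tfam control replicate 4 stood above the other 4 with 42767 CPM of Ins1 and 22419 CPM of Iapp. Clec16a control RFD replicate 2 stood above the other 3 with 92245 CPM of Ins1 and 39.9 Ins1 counts per 100 Ins2 counts. The library labelled Clec16a KO HFD replicate 4 stood above the other 4 with 40.7 Ins1 counts per 100 Ins2 counts. Clec16a KO HFD replicate 1 stood above the other 4 with 21967 CPM of Iapp.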

How the results depend on the processing

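The calls of Ins1, Ins2 and Ucn3 in Tfam islets and of Ucn3 on both Clec16a diets held under every alternative run. Over all of these, each library left out in turn included, log2 fold changes ran as follows: Ins1 -1.31 to -1.19, Ins2 -0.98 to -0.87, Ucn3 -0.94 to -0.85 in Tfam islets, and Ucn3 -0.90 to -0.77 on RFD and -1.13 to -0.96 on HFD. Over all results and alternatives 1180 values were labelled the same, 49 reversed, 41 lost and 9 gained a call, and 58 moved. For values with a p, the same means equal direction and side of the threshold. For numbers of genes called it means a like size. Ratios within a lane have no p, and uncalled ones near the main value were labelled the same even with another sign. Ins1 to Ins2 in lane 8 was such a case (0.17 on RFD and 0.10 on HFD, against -0.21 and -0.22 over both lanes). The cause of the changes was not tested unless said.

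With 1 library left out at a time, log2 values ran from -0.30 to -0.18 for Iapp in Tfam islets over both sexes (called in 4 of 14), -0.045 to 0.13 for Iapp in the test of the sexes, -0.97 to -0.53 for Ins1 and -0.51 to -0.34 for Ins2 on HFD, -0.18 to 0.030 for Iapp on RFD, -0.11 to 0.11 for Iapp and -0.63 to 0.039 for Ins1 in genotype by diet. They ran from -0.095 to 0.35 for Ins1 and -0.15 to 0.014 for Ucn3 between diets in KO, -0.088 to 0.10 for Ins2 between diets in controls, and -0.93 to -0.54 for Ins1 and -0.031 to 0.076 for Ucn3 between the experiments. For ratios to Ins2 they ran from -0.36 to 0.049 (Ins1, RFD), 0.52 to 0.64 (Iapp) and -0.33 to -0.29 (Ins1) in Tfam females, -0.65 to -0.54 (Ucn3, HFD), -0.00014 to 0.23 (Ucn3, diet in controls), and, for Ucn3 in Tfam islets, -0.0089 to 0.080 over both sexes, -0.054 to 0.090 in females and -0.024 to 0.15 in males. Genes called ran from 3096 to 4995 in Tfam islets, 1336 to 2626 in females, 578 to 1543 in males, 0 to 1 between the sexes, 523 to 1224 on RFD, 786 to 3369 on HFD, 3 to 12 and 0 to 31 between diets in controls and KO, and 2350 to 4016 between the experiments. Where an arm was left with 1 library, that library was assumed to vary like the other groups.

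Without the filter on low counts, Iapp in Tfam islets was -0.26 (adjusted p = 0.104), its genotype by diet value -3.48e-05, and 30 genes were called between the sexes and 6 between diets in KO. With an acinar score as a term, Iapp was -0.069 between the sexes, 0.025 on RFD and -0.071 in genotype by diet, Ins2 on HFD was -0.41 (adjusted p = 0.0476), Ins1 between diets in KO -0.17, Ucn3 between the experiments -0.015, and 4 and 0 genes were called between diets in controls and KO. DESeq2 called Iapp in females (-0.30, adjusted p = 0.0429) and Ins2 on HFD (-0.44, 0.0173), and 2708 genes in males, 34 between the sexes, 54 and 42 between diets in controls and KO, and 20 in genotype by diet. Without a sex term Iapp in Tfam islets was -0.27 (adjusted p = 0.0718). Library sizes without the 4 genes gave 7 genes between diets in KO and -0.0070 for Iapp in genotype by diet. With lane as a term, 3 genes were called between diets in controls, Ucn3 between diets in KO was 0.0023 and Ins1 in genotype by diet 0.0026. A fit of only the compared groups called 0 genes between diets in KO. Within lanes 7 and 8 the log2 ratio of Iapp to Ins2 was 0.036 and 0.34 between genotypes on RFD and 0.082 and 0.41 between diets in controls, that of Ucn3 to Ins2 was 0.57 and -0.32 between diets in controls, and -0.025 in lane 8 between diets in KO. With 1 library left out, the female Ins1 and Iapp ratios lost their call in all 9 sets, which sets of that size cannot avoid. Ratios from TPM gave the same differences as those from counts.

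Leaving out the 5 libraries with a high Ins1 count relative to Ins2 was chosen after seeing the data, as was leaving out KO HFD replicate 4 for the lists. The first gave 0.026 for Iapp and 1953 genes on RFD, -0.42 for Ins1, -0.56 for Ins2 and 2936 genes on HFD, 0.14 for Ins2 between diets in controls, -0.092 for Ins1 and 15 genes between diets in KO, -0.20 for Iapp in genotype by diet, and -0.40 for the ratio of Ucn3 to Ins2 on HFD.

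Replicate numbers were taken as a replicate block in an alternative fit, although they did not pair the libraries: residual profiles of libraries with the same number had a median correlation of 0.065 in Tfam (6 pairs, -0.096 to 0.212) and -0.037 in Clec16a islets (9 pairs, -0.202 to 0.307). With the block, Iapp in Tfam islets was -0.28 (adjusted p = 0.0513), and 36 genes were called between the sexes, 776 on RFD, 762 on HFD, 3 between diets in controls and 10 in genotype by diet. No other call of the 4 genes changed with the block.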
